A study of Mus musculus with 8 samples.

Results

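The genes of 10 secreted matrix repair proteins were measured in the hearts of Gpihbp1 knockout and wild-type mice: Postn, Tnc, Spp1, Thbs1, Sparc, Ccn2, Lox, Ltbp2, Timp1 and Cthrc1. They were taken by symbol from a table of 17190 genes, and all 10 were listed there. The symbols were selected on earlier results of these same 8 libraries, the gene levels in each heart by genotype among them. Levels and genotype differences of the 10 genes are therefore given as descriptions, and nothing is supported by them.

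The tested mice carried the genotype Gpihbp1-/- (hearts 1, 2, 3 and 4) and were set against wild-type mice (hearts 2, 4, 5 and 6). All were males fed standard chow; the labels give no age, strain, litter or day of collection. Gpihbp1 is the protein of capillary endothelium that binds lipoprotein lipase, and its absence is a model of severely raised chylomicrons. Polyadenylated RNA of dissected heart tissue was sequenced, so here fewer cells of a type and less RNA per cell cannot be told apart.

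Matricellular proteins are secreted into the extracellular matrix but do little to bear load; they bind cell-surface receptors, growth factors and collagen, and tune how cells respond to the matrix. Most are low in the healthy adult heart and are known to appear after infarction, pressure overload or inflammation, made largely by activated fibroblasts and, for osteopontin, by macrophages. Around them work the enzymes and regulators that finish a scar: lysyl oxidase crosslinks collagen and elastin, latent TGF-beta binding proteins sit on fibrillin fibres, and TIMPs block metalloproteinases.

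Libraries held from 9065561 to 13492971 counts. Gpihbp1 had 0, 0, 1 and 0 reads in knockout 1, 2, 3 and 4 and between 833 and 1951 reads in the wild-type hearts, so every library matched its genotype label. Of the defining heart markers, Tnnt2, Myh6 and 6 other cardiomyocyte genes were read in all 8 hearts. Knockout 2 and wild-type 2 stood apart from the other 6 hearts: of 12826 genes tested, 294 (2.29%) were at least 4-fold above the highest of the other 6 in both. Wild-type 6 stood apart in another way, with 12281 CPM of summed red cell genes against at most 1517 CPM elsewhere, and with the atrial myocyte gene Myl4 at 974 CPM, against 1.83 to 2.45 CPM in the other hearts. All CPM values are read counts scaled to library size with TMM factors and not corrected for gene length.

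Levels of the matrix repair genes differed most between hearts of the same genotype. All 10 were higher in both knockout 2 and wild-type 2 than in any of the other 6 hearts. This held in CPM scaled by TMM, RLE or total count and in TPM. In TMM-scaled CPM, 8 of the 10 were higher by at least 8-fold and 5 by at least 16-fold, and these fold counts differ on other scales. Of the 8 members that were tested between genotypes, 8 were above on that scale, 6 by at least 8-fold and 3 by at least 16-fold. Of all tested genes, 22.2% were above every other heart in both, 0.585% by at least 8-fold and 0.078% by at least 16-fold. The members were selected on such levels, so nothing is read from their counts. Together the 10 genes made up 0.733% of all counts in knockout 2 and between 0.0446% and 0.0658% in knockout 1, 3 and 4; the share was 0.641% in wild-type 2 and between 0.0411% and 0.0759% in wild-type 4, 5 and 6. Each genotype thus had 1 heart with a high level and 3 hearts with a low level of these transcripts.

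**Figure D1:**
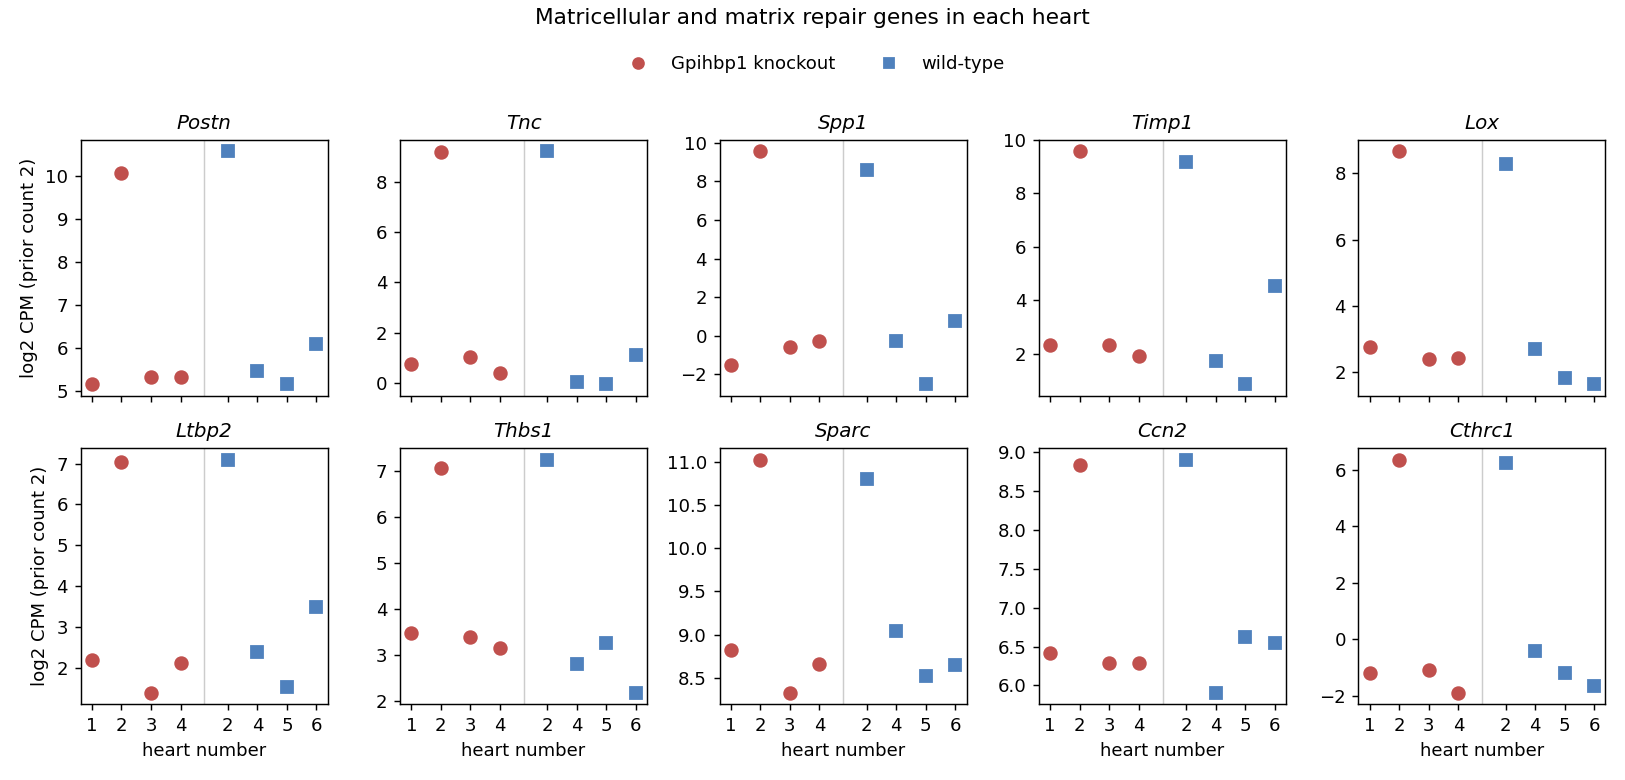
Level of each of the 10 genes in each heart, as log2 CPM with a prior count of 2, with 4 Gpihbp1 knockout hearts left (red circles) and 4 wild-type hearts right (blue squares), 1 point a heart. In every panel knockout 2 and wild-type 2 lie above the other 6 hearts; Timp1 and Ltbp2 show wild-type 6 in between.

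Transcription start regions of members with very different resting levels are printed here, because the 10 genes moved together across hearts. RefSeq promoters on build GRCm38.p6 were matched for 6 members with 9 listed starts: Postn, Tnc, Spp1, Sparc, Ltbp2 and Timp1. Shown are the 250 bases before a start for the 4 whose window holds no annotated exon, 5′ to 3′ on the strand of the gene. Capitals mark a TATA box (TATAAA), a SMAD motif (CAGAC, or GTCTG on the other strand) or a TEAD motif (CATTCC, or GGAATG on the other strand).
Postn (chr3:54360857-54361106, plus strand): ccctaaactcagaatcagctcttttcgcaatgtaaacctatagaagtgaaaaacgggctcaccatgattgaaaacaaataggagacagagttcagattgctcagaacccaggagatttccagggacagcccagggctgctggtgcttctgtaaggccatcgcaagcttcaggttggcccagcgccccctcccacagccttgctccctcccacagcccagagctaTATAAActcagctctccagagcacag
Tnc (chr4:64047016-64047265, minus strand): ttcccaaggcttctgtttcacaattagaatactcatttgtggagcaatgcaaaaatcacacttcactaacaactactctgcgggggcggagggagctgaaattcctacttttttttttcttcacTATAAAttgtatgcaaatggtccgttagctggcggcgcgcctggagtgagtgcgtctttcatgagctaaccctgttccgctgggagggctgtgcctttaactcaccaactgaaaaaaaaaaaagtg
Spp1 (chr5:104434861-104435110, plus strand): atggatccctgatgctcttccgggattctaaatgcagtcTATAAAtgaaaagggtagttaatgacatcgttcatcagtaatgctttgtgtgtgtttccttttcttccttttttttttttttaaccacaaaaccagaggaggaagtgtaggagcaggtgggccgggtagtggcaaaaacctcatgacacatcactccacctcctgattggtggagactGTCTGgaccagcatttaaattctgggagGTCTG
Timp1 (chrX:20869916-20870165, plus strand): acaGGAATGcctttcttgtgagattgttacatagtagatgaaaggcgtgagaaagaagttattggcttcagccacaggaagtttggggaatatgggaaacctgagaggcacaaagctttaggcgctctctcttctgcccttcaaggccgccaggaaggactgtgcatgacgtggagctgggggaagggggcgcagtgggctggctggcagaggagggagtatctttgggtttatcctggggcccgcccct

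In the printed windows the TATAAA letters of Postn lay closest to the start, 26 to 21 bases before it. Those of Tnc and Spp1 lay 126 to 121 and 211 to 206 bases before. From the other listed start of Tnc they lay 205 to 200 bases before. Other forms of the box were not searched. Over the window from 250 bases before to 50 after each start, both strands searched, the TATA box was in 4 of the 9 member starts and in 13.6% of 32851 RefSeq promoters. The SMAD motif was in 7 of 9, against 49.6% of promoters. Both windows of Tnc overlap and share 1 TATA box; with overlapping windows joined, the TATA box was in 3 of 8 member regions and the SMAD motif in 6 of 8. The TEAD motif was in 1 of 9 (14.7% of promoters), and the AP-1 motif (TGANTCA, 7.81%) and the SRF CArG box (1.63%) in 0 of 9. These are matches of letters in a short window and say nothing of binding.

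Per gene length, in the TPM deposited by the authors, the order of resting levels was wide. The median over 8 hearts was 235 TPM for Sparc, 49.6 TPM for Ccn2, 17.9 TPM for Postn and 9.58 TPM for Timp1, and between 0.305 TPM (Tnc) and 2.305 TPM (Thbs1) for the other 6 genes. In the 6 hearts other than knockout 2 and wild-type 2, the ranges of Sparc (90.1 to 290.5 TPM), Ccn2 (23.2 to 66.7 TPM) and Postn (12.7 to 19.9 TPM) did not overlap. Timp1 (3.8 to 22.6 TPM) overlapped Postn and lay above Thbs1 (0.42 to 2.55 TPM). From Thbs1 down through Lox, Ltbp2, Spp1 and Cthrc1 to Tnc, each gene's range overlapped that of the next. The FPKM values gave the same order for all 10.

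In the hearts with high levels the order was another one. In knockout 2 the highest were Timp1 at 1757 TPM, Sparc at 1290 TPM, Spp1 at 953 TPM and Postn at 548 TPM. In wild-type 2 they were Timp1 at 1044 TPM, Sparc at 868 TPM, Postn at 618 TPM and Spp1 at 375 TPM. Timp1 thus stood above Sparc in these libraries, although in every other heart Sparc was higher. Tnc, the lowest of the 10 by its median, reached 146 TPM in knockout 2 and 126 TPM in wild-type 2, above Thbs1 at 35.2 and 31.6 TPM.

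Among the matricellular proteins, periostin (Postn) is a fibroblast product that binds integrins and supports collagen assembly. It had 35.5, 1069, 39.5 and 39.8 CPM in knockout 1, 2, 3 and 4, against 1532, 43.6, 35.5 and 68.2 CPM in wild-type 2, 4, 5 and 6. The highest value was that of a wild-type heart, knockout 1 and wild-type 5 were lowest at nearly equal values, and the genotypes overlapped. In TPM wild-type 6 was the lowest for Postn, at 12.7 TPM. Tenascin C (Tnc), a large anti-adhesive glycoprotein of wound edges, had 1.504, 585, 1.86 and 1.13 CPM in knockout 1, 2, 3 and 4, against 604, 0.855, 0.786 and 1.97 CPM in wild-type 2, 4, 5 and 6. Those levels rested on 8912 reads in knockout 2 and 8672 in wild-type 2 and on 9 to 19 reads in each other heart. The ratio of knockout 2 to wild-type 2 was 0.968 for Tnc and 0.698 for Postn.

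Osteopontin (Spp1), a phosphorylated integrin and CD44 ligand made by macrophages in injured hearts, spanned the widest range of the 10. It had 2, 11526, 5 and 7 reads in knockout 1, 2, 3 and 4, against 5441, 7, 0 and 11 reads in wild-type 2, 4, 5 and 6. In CPM, knockout 2 stood at 756 and wild-type 2 at 379, a ratio of 1.996, and no other heart exceeded 1.55. This was the largest difference among the 10 genes between those libraries, each of them a single heart without a replicate.

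Thrombospondin 1 (Thbs1), an activator of latent TGF-beta and a ligand of CD47 and CD36, had 10.9, 133, 10.3 and 8.67 CPM in knockout 1, 2, 3 and 4, against 152, 6.84, 9.34 and 4.36 CPM in wild-type 2, 4, 5 and 6. SPARC (Sparc), a collagen-binding protein needed for collagen processing, had 452, 2086, 321 and 403 CPM in the knockout hearts in the same order, against 1782, 527, 365 and 401 CPM in the wild-type hearts. CCN2 (Ccn2), also called connective tissue growth factor, had 85.3, 458, 77.8 and 78.0 CPM in the knockout hearts, against 480, 59.9, 98.8 and 92.9 CPM in the wild-type hearts. Sparc and Ccn2, the members with the highest resting levels, had the smallest steps: knockout 2 stood 3.96-fold and 4.64-fold above the highest of the other 6 hearts, and wild-type 2 stood 3.38-fold and 4.85-fold above it.

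Lysyl oxidase (Lox), which starts the crosslinking of collagen and elastin, had 6.63, 406, 5.09 and 5.28 CPM in knockout 1, 2, 3 and 4, against 308, 6.27, 3.41 and 2.95 CPM in wild-type 2, 4, 5 and 6. Ltbp2, a fibrillin-binding member of the latent TGF-beta binding family that does not itself bind the latent growth factor, had 4.42, 130, 2.45 and 4.14 CPM in the knockout hearts, against 137, 5.04, 2.71 and 11.1 CPM in the wild-type hearts. Timp1, an inhibitor of metalloproteinases, had 4.86, 758, 4.89 and 3.58 CPM in the knockout hearts, against 572, 3.14, 1.66 and 23.0 CPM in the wild-type hearts. Of the remaining 6 hearts, wild-type 6 was the highest for Timp1 and the lowest for Lox and Thbs1, in CPM as in TPM. It was the highest for Ltbp2, Postn, Tnc and Spp1 in CPM only. Its TMM factor, 0.678, was the lowest of all hearts, which raises every CPM of that heart. Leaving knockout 2 and wild-type 2 aside, Timp1 differed 13.9-fold in CPM between its highest and lowest heart and 5.95-fold in TPM. The other spreads depended on the scale as well: Ltbp2 differed 4.54-fold in CPM and 2.29-fold in TPM, Lox 2.25-fold and 5.08-fold, Sparc 1.64-fold and 3.22-fold, and Ccn2 1.65-fold and 2.88-fold.

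Cthrc1, a secreted protein of activated fibroblasts and wounded arteries, was close to absent outside the high hearts. It had 3, 1242, 3 and 1 reads in knockout 1, 2, 3 and 4, against 1082, 6, 3 and 1 reads in wild-type 2, 4, 5 and 6. At 1 to 6 reads a heart, no difference among the remaining hearts was detectable at this depth. Knockout 2 and wild-type 2 were alike in it, at 81.5 and 75.4 CPM.

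Set against each other as profiles, the 10 genes shared the rank of the high hearts but not its size. The measure was the root mean square difference, over 8 hearts, between log2 CPM profiles centred on their means. Postn lay closest to the median profile of the 8 tested members, at 0.15 log2 units, and Ltbp2 followed at 0.34. Spp1 lay farthest at 2.26, with a span of 12.1 log2 units between its highest and lowest heart, and Tnc at 1.67. Sparc and Ccn2 were the closest pair, at 0.38, and Spp1 and Sparc the most distant, at 3.39.

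Of the genes outside the 10 with a mean of at least 1 CPM, those closest to the median profile were Tubb3 at 0.22 log2 units, Ube2c at 0.32, Cdk1 at 0.34, Bcat1 at 0.36 and Fcgr1 at 0.37, followed by Birc5, Fcgr4, Trem2, Ccna2 and Adam12 at 0.40 to 0.44. Tubb3 stood at 59.3 CPM in knockout 2, 46.7 CPM in wild-type 2 and 1.31 to 3.37 CPM in the other 6 hearts. Ube2c, Cdk1, Birc5 and Ccna2 are genes of dividing cells, while Fcgr1, Fcgr4 and Trem2 encode receptors of myeloid cells. Likeness over 8 hearts rests here mainly on the difference between knockout 2 and wild-type 2 and the other 6.

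Between the genotypes no member passed the threshold. Spp1 and Cthrc1 did not reach the count filter, since 10 or more reads were found only in knockout 2, wild-type 2 and, for Spp1, wild-type 6. Of the 8 tested, 0 were called higher and 0 lower in edgeR's quasi-likelihood test, where 0.0312% of all 12826 tested genes were called (0.0234% higher and 0.0078% lower), and 0 had an unadjusted p under 0.05. DESeq2 gave no p-value for any of the 8. The median log2 fold change, knockout over wild-type, was -0.05 over the 8 and -0.02 over all tested genes; 3 of 8 were positive with TMM scaling and 6 of 8 with total-count scaling, which moved the median of all genes to 0.08.

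The intervals of these differences were wide. Postn averaged 296 ± 516 CPM in knockout hearts and 420 ± 742 CPM in wild-type hearts (SD, n = 4 each). Its log2 fold change was -0.50 (95% interval -3.92 to 2.92). Tnc had a log2 fold change of -0.04, with an interval from -5.33 to 5.24. For Timp1 it was 0.36 (-4.23 to 4.96), for Lox 0.40 (-3.71 to 4.51), for Ltbp2 -0.14 (-3.51 to 3.24) and for Thbs1 -0.08 (-2.97 to 2.82). Sparc, at 0.08, and Ccn2, at -0.06, had the narrowest intervals, from -1.59 to 1.76 and from -1.90 to 1.77. The edgeR adjusted p was 0.99998 for each of the 8. Without a count filter, Spp1 had 1.01 (-5.09 to 7.10) and Cthrc1 0.12 (-4.82 to 5.06).

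Which hearts entered decided the sign. Without knockout 2 all 8 log2 fold changes were negative, such as -6.65 for Tnc and -3.45 for Postn, and without wild-type 2 all 8 were positive, such as 6.98 for Tnc and 2.59 for Postn. In these fits 5 and 3 of the 8 members had an unadjusted edgeR p under 0.05, as did 1.69% and 2.26% of all tested genes, and the lowest adjusted p was 0.99919 and 0.99977. Without both hearts the intervals of all 8 were narrower than with all hearts. Ccn2 was then at -0.06 (95% interval -0.66 to 0.55), Sparc at -0.14 (-0.91 to 0.64), Postn at -0.36 (-1.0003 to 0.29), Lox at 0.42 (-0.41 to 1.24), Thbs1 at 0.53 (-0.20 to 1.25), Tnc at 0.37 (-0.73 to 1.47) and Ltbp2 at -0.74 (-1.90 to 0.41). Timp1 was at -1.01 (-2.88 to 0.85), and at 0.90 (0.01 to 1.78) when wild-type 6 was left out as well. Of the remaining hearts wild-type 6 was the highest for Timp1, at 23.0 CPM against 1.66 to 4.89 CPM. Leaving wild-type 6 out thus raised the Timp1 value by the choice of heart, and nothing is read from that interval. In either fit 0 members passed.

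**Figure D2:**
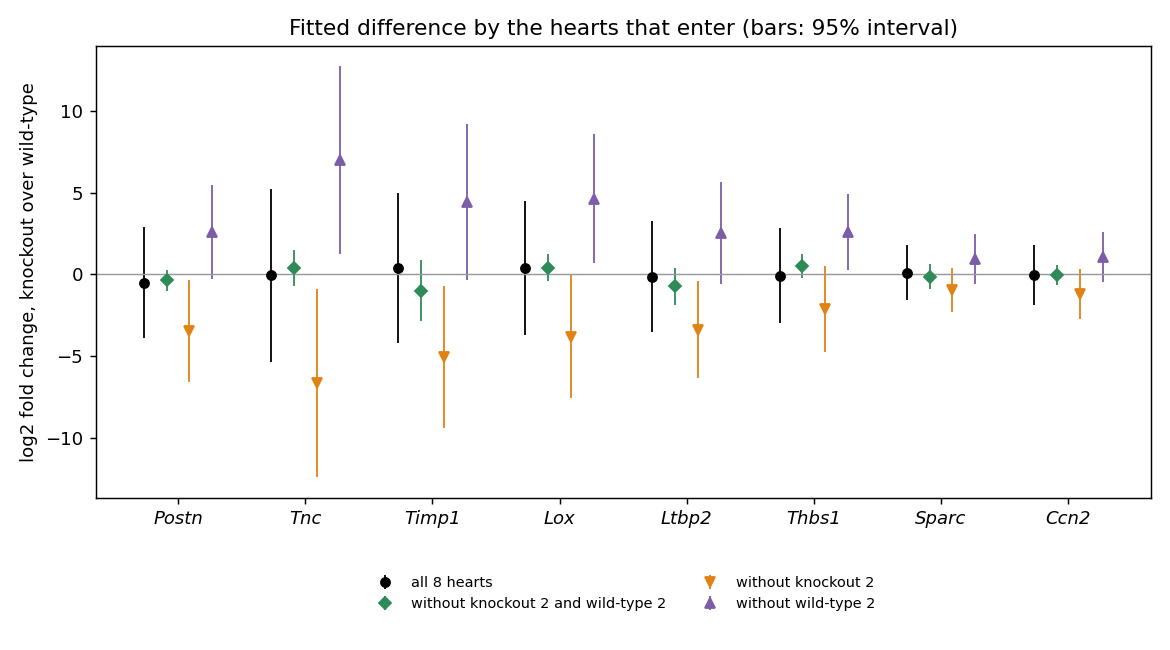
Log2 fold change, knockout over wild-type, of the 8 tested genes with its 95% interval, fitted on all 8 hearts (black circles), without knockout 2 and wild-type 2 (green diamonds), without knockout 2 (orange triangles pointing down) and without wild-type 2 (purple triangles pointing up). All points without knockout 2 lie below 0 and all points without wild-type 2 above 0, while the intervals without both are narrower than those on all 8 hearts.

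The nearest relatives of these genes did not all share the pattern. Of the thrombospondins, Thbs2, Thbs3 and Thbs4 were higher in knockout 2 and wild-type 2 than in the other 6 hearts as well, with Thbs4 at 59.7 and 68.7 CPM against 4.75 to 17.0 CPM. Comp, also a thrombospondin, was not separated, at 2.03 and 2.93 CPM against 0.881 to 7.31 CPM. In the SPARC family the hevin gene Sparcl1 stood at 209 CPM in knockout 2 and 233 CPM in wild-type 2, below the 245 to 658 CPM of the other 6, but was not separated with total-count scaling or in TPM. In the CCN family Ccn4, a WNT-induced fibroblast gene, stood at 24.2 and 17.1 CPM in knockout 2 and wild-type 2, against 0.294 to 1.41 CPM elsewhere. Ccn6 was below the other hearts in both, and Ccn3 and Ccn5 were not separated.

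The enzymes and inhibitors were split as well. All 4 other lysyl oxidases (Loxl1, Loxl2, Loxl3, Loxl4) were above the other 6 hearts in knockout 2 and wild-type 2, such as Loxl2 at 257 and 160 CPM against 12.8 to 26.9 CPM. Of the latent TGF-beta binding proteins, Ltbp3 was above at 110 and 115 CPM against 57.6 to 78.4 CPM, Ltbp4 was below at 164 and 156 CPM against 324 to 725 CPM (not separated in TPM), and Ltbp1 was not separated. Of the inhibitors, Timp2 was above in both, while Timp4, the member known for its cardiac expression, was below, and Timp3, which binds to the matrix, was below with TMM or RLE scaling and not separated with total-count scaling or in TPM. Timp4 stood at 6.56 CPM in knockout 2 and 4.95 CPM in wild-type 2, against 31.5 to 82.5 CPM in the other hearts.

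**Figure D3:**
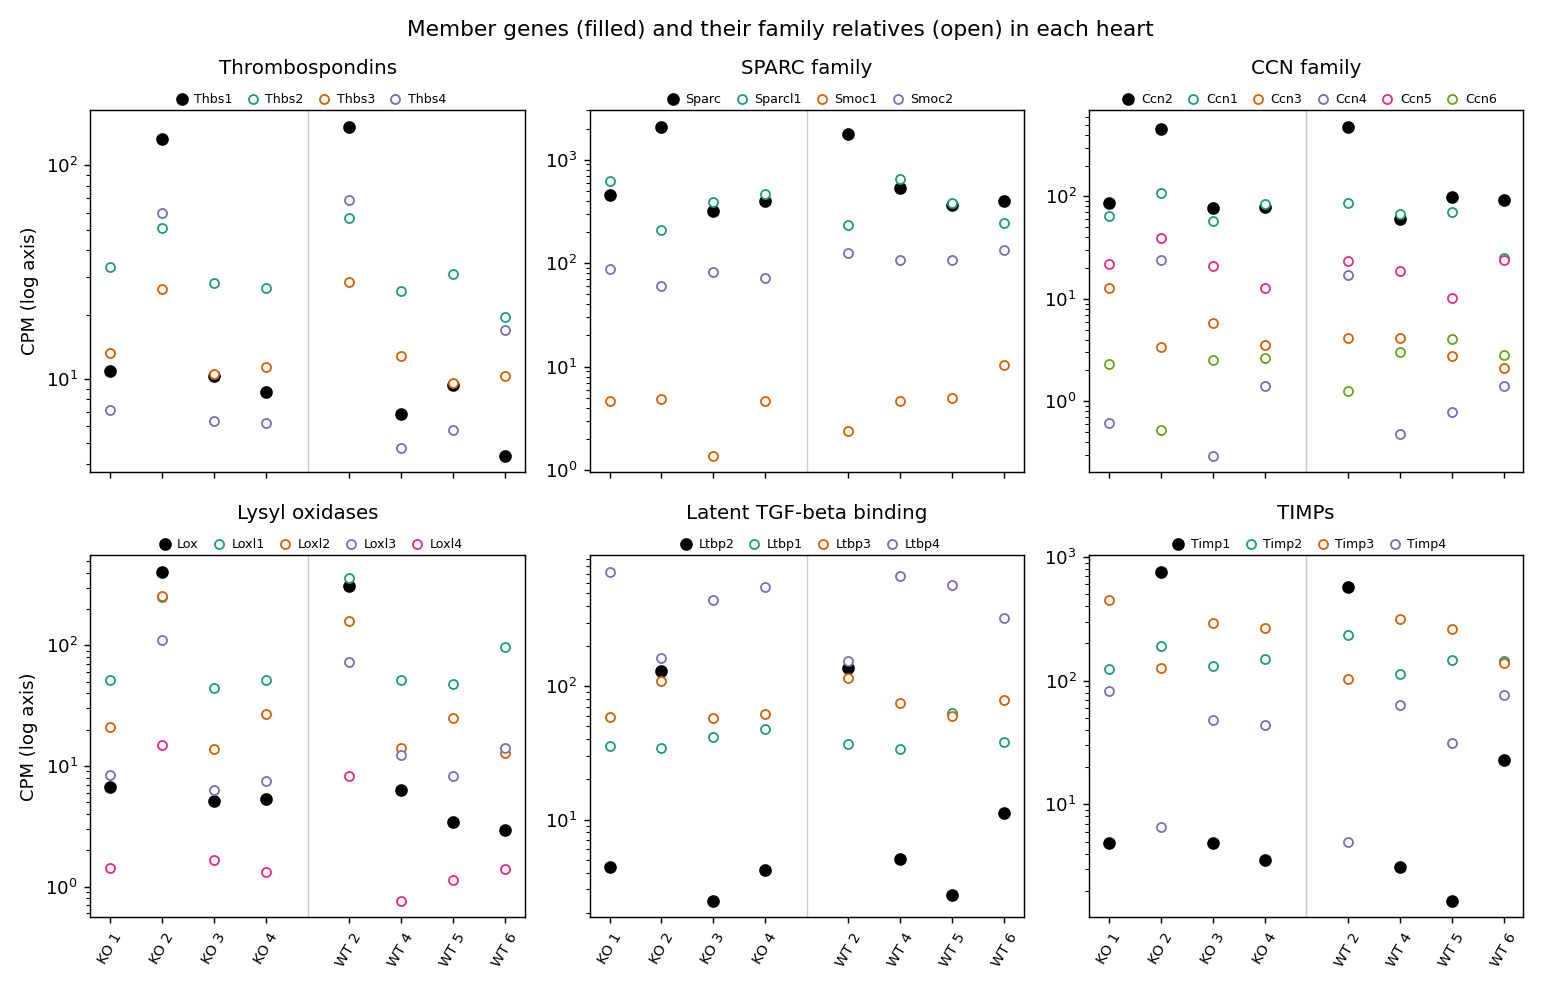
CPM on a log axis in each heart, 4 Gpihbp1 knockout hearts (KO) left and 4 wild-type hearts (WT) right, for 6 families, with the member genes as filled black points and their relatives as open points. Comp is not among the thrombospondins drawn. Each gene is to be read across hearts, since CPM are not per gene length; Timp4 is lower in KO 2 and WT 2 than in the other 6 hearts, as on this scale are Sparcl1, Ltbp4 and Timp3, which are not separated in TPM, while the filled points are higher.

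The related genes, 123 in 7 lists, gave 109 tested between the genotypes. By edgeR's quasi-likelihood test 0 were called higher and 0 lower, and DESeq2 called 0 of the 89 to which it gave an adjusted p; 3 of the 109 had an unadjusted edgeR p under 0.05, as did 0.904% of all tested genes. Matricellular relatives had 19 tested genes and a median log2 fold change of 0.05, receptors 17 and 0.01, TGF-beta storage and signalling 20 and 0.01, and fibre assembly and crosslinking 22 and 0.04. Fibrillar collagens had 7 and 0.22, and TIMPs and metalloproteinases 11 and 0.07. The list of TEAD and SRF cofactors had 13 and -0.05. It also holds Srf, the Tead genes, Lats1, Lats2 and Amotl2, so it is not a list of activators only.

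Across hearts the lists differed. Of tested genes, 19 of 22 for fibre assembly and crosslinking were higher in both knockout 2 and wild-type 2 than in any other heart, where 22.2% of all tested genes were. The count was 5 of 7 for fibrillar collagens, with Col1a1 at 2905 CPM in knockout 2, 1429 CPM in wild-type 2 and 30.8 to 106 CPM elsewhere. It was 12 of 17 for receptors, 9 of 20 for TGF-beta genes, 8 of 19 for matricellular relatives, 7 of 11 for TIMPs and metalloproteinases and 1 of 13 for TEAD and SRF cofactors. Of listed genes, tested or not, 0 were lower in both hearts in the fibre and collagen lists under all 4 scales; in the other lists the count was 2 or 3 with TMM scaling and 0 or 1 in TPM.

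Receptors and partners of the 10 proteins gave single examples. The osteopontin receptor Cd44 stood at 92.7 and 91.0 CPM in knockout 2 and wild-type 2, against 8.21 to 11.8 CPM. The most abundant integrin chain, Itgb1, stood at 697 and 570 CPM, against 229 to 368 CPM, and between genotypes it had a log2 fold change of 0.18 (95% interval -0.75 to 1.10). Cd36, a thrombospondin receptor and the fatty acid carrier of cardiomyocytes, stood at 856 and 697 CPM against 1121 to 1833 CPM, but was not separated with total-count scaling or in TPM. Fibronectin (Fn1), a matrix protein that binds tenascin C and periostin, stood at 1111 and 813 CPM, against 39.5 to 74.3 CPM. Biglycan (Bgn) and decorin (Dcn), small collagen-binding proteoglycans, differed from each other: Bgn stood at 1429 and 1691 CPM, against 328 to 415 CPM, and Dcn at 536 and 744 CPM, against 516 to 636 CPM. Col3a1 reached 4384 and 3607 CPM, against 109 to 203 CPM.

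Among TGF-beta genes, Tgfb2 stood at 58.2 CPM in knockout 2 and 42.3 CPM in wild-type 2, against 6.46 to 9.20 CPM in the other 6. Tgfb1 stood at 67.7 and 74.2 CPM, against 34.6 to 59.5 CPM. The corepressor gene Ski was not separated, at 98.9 and 97.1 CPM against 71.3 to 120 CPM. In the TEAD and SRF list, Yap1 stood at 77.6 and 76.0 CPM against 84.9 to 128 CPM. That separation was absent with total-count scaling and in TPM. Srf, at 118 and 119 CPM, and Tead1, at 108 and 89.3 CPM, were within the range of the others.

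Smoc2 and Comp were picked out after their values were seen, as relatives whose genotypes did not overlap in TMM-scaled CPM. They were 2 of the 109 tested, where 0.632% of all tested genes did not overlap on that scale. Smoc2, a secreted SPARC family protein, had 87.7, 60.4, 81.8 and 71.5 CPM in knockout 1, 2, 3 and 4, against 125, 108, 108 and 134 CPM in wild-type 2, 4, 5 and 6. On this scale all 4 knockout hearts lay below all 4 wild-type hearts. With total-count scaling they overlapped, since wild-type 6 then fell below knockout 1. The log2 fold change was -0.65 with a standard error of 0.21 and a 95% interval from -1.13 to -0.18. It did not pass, with an unadjusted p of 0.0122 and an edgeR adjusted p of 0.99998, and without knockout 2 and wild-type 2 it was -0.53 (-1.09 to 0.03). Comp, a thrombospondin of cartilage, had 1.59, 2.03, 0.881 and 2.07 CPM in the knockout hearts, against 2.93, 3.04, 2.53 and 7.31 CPM in the wild-type hearts. Its log2 fold change of -1.24 (95% interval -2.27 to -0.21, unadjusted p = 0.0228 in edgeR) did not pass either. The Comp value was -1.46 (-2.63 to -0.29) without knockout 2 and wild-type 2, and -0.79 (-1.67 to 0.09) without wild-type 6, its highest heart. The remaining gene with an unadjusted p under 0.05 was Mmp9, a gelatinase of neutrophils, at 1.53 on the log2 scale and at 0.68 without knockout 2 (unadjusted p = 0.191 in edgeR).

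Some marker lists of the cell types a dissected heart holds moved with the same hearts. The 9 macrophage markers summed to 2718 CPM in knockout 2 and 515.6 to 635 CPM in knockout 1, 3 and 4; the sum was 4101 CPM in wild-type 2 and 401 to 708 CPM in wild-type 4, 5 and 6. All 9 were above the other 6 hearts in both, among them Trem2 at 66.9 CPM in knockout 2 and 116 CPM in wild-type 2. Activated fibroblast markers, of which Fn1 is also in a list above, summed to 1794 CPM in knockout 2 and 240 to 352 CPM in the other knockout hearts, and to 1680 CPM in wild-type 2 and 224 to 304 CPM in the other wild-type hearts; 6 of 8 were above.

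The 8 general fibroblast markers gave a sum that Gsn, the most abundant, decided. It came to 1381 CPM in knockout 2 and 2309 to 2912 CPM in knockout 1, 3 and 4, and to 2164 CPM in wild-type 2 and 2601 to 3438 CPM in wild-type 4, 5 and 6. With total-count scaling or in TPM this sum was not separated. Without Gsn, which was below the other hearts in both, the sum was 1100 CPM in knockout 2 and 898 to 1012 CPM in knockout 1, 3 and 4, and 1628 CPM in wild-type 2 and 918 to 1009 CPM in wild-type 4, 5 and 6. Of the 8, 4 were above the other hearts, such as the receptor gene Pdgfra at 56.0 and 79.8 CPM against 26.1 to 42.9 CPM. Cardiomyocyte markers summed to 37994 CPM in knockout 2 and 40272 CPM in wild-type 2, against 59180 to 116618 CPM elsewhere, and endothelial markers to 717 and 617 CPM, against 1102 to 2468 CPM, a sum not separated with total-count scaling or in TPM. Neutrophil markers came to 115 and 44.0 CPM, against 8.12 to 84.3 CPM, while the cartilage and bone list came to 9.32 and 9.89 CPM, against 1.66 to 2.19 CPM, nearly all of it Sox9. Lymphocyte, smooth muscle, epicardial, Schwann cell, red cell and adipocyte sums were not separated. The atrial list, which holds the stress gene Nppa, came to 4469 CPM in knockout 2, 3135 CPM in wild-type 2 and 5019 CPM in wild-type 6, against 159 to 301 CPM, with Myl7, Sln and Bmp10 at 0 in knockout 2 and in wild-type 2. In wild-type 6 Myl7 stood at 427 CPM and Sln at 356 CPM. The part of these cell types in the level of the matrix repair genes was not tested.

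**Figure D4:**
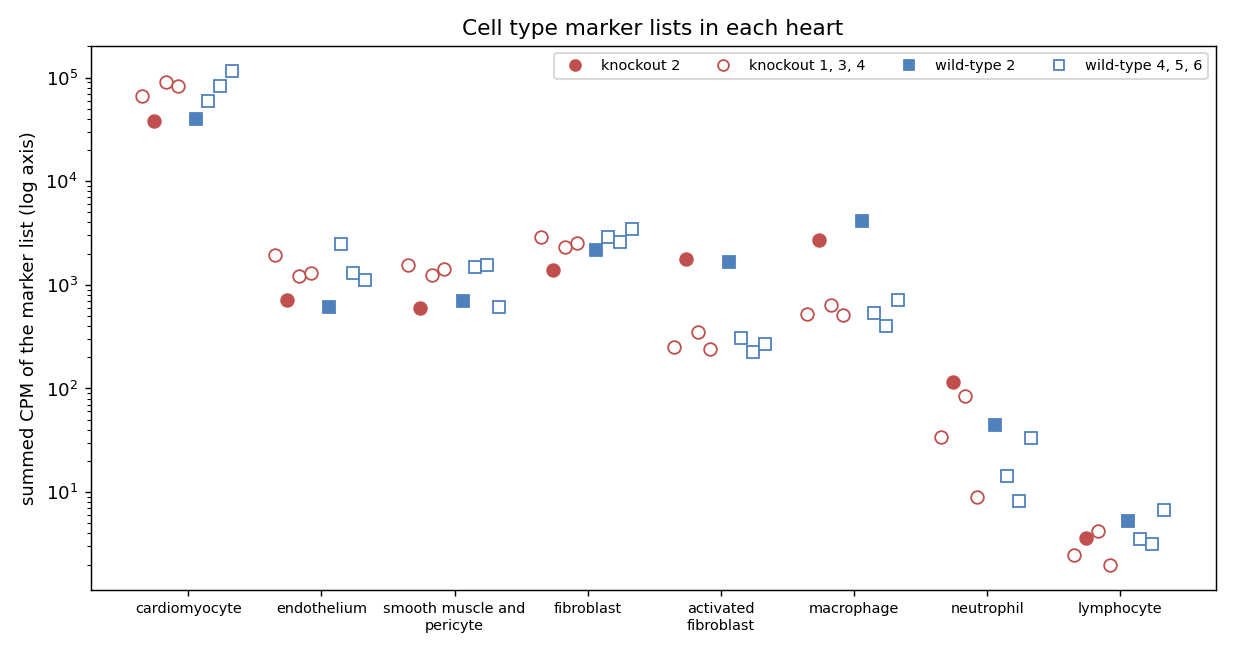
Summed CPM of 8 cell type marker lists in each heart on a log axis, Gpihbp1 knockout hearts as red circles left and wild-type hearts as blue squares right within each list; filled symbols are knockout 2 and wild-type 2. The filled symbols lie above the open ones for activated fibroblasts and macrophages and, on this scale, below them for cardiomyocytes, endothelium and general fibroblasts.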

How the data were processed

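Per the file headers, the authors deposited a single table that gives each gene an expected count, a TPM and an FPKM in every library. Per the submitters' processing notes, HISAT, Bowtie2 and the build GRCm39 were used; versions, the role of each and the counting program are not given in the sources used here. Per the labels' protocols, stranded polyadenylated RNA libraries were sequenced from both ends by DNBSEQ; 1 protocol paragraph names rat tissue, while every sample is labelled mouse. Between 4.32% and 5.89% of counts in a library were not whole; they were rounded. The 8 per-sample columns of normalized counts were empty and not used.

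Genes were kept by filterByExpr (minimum count 10, minimum total 15) and compared between genotypes by the robust quasi-likelihood F-test of edgeR 4.0.16 (R 4.3.3), scaled by TMM and with no covariate. P-values were adjusted by Benjamini-Hochberg over all tested genes, with a threshold of 0.05. A standard error is the size of the log2 value over the square root of F; 95% intervals use the fit's degrees of freedom. The biological coefficient of variation was 43.7%, and a p-value covers only how these 8 hearts vary. No 2 libraries agreed within sampling noise (chi-square per degree of freedom at least 7.29 over 28 pairs).

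The members, the gene lists, the motifs and the alternatives were chosen with earlier results of these data known. Related genes were named if they passed or were the 2 most abundant tested genes of their list; other named genes were picked with their values in view, and the values of 1 related gene are not reported here. The 10 genes of likest profile were named with predicted gene names left out. Alternatives were RLE and total-count scaling, no or a stricter count filter (10 reads in 6 hearts), DESeq2 1.42.0, a replicate block, and leaving out hearts; the comparison with TPM, the position of hearts by scaling and the fibroblast sum without Gsn were added after seeing the data. Promoters are RefSeq's on GRCm38.p6, checked against GENCODE exons of that build; the deposited table carries no coordinates.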

Additional observations from a re-analysis of the deposited data

Results flagged for a closer look

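Within each genotype, the gap between the highest heart and the next, divided by the range of the 4 log2 CPM values, was compared with Dixon's 95% critical value for 4 samples. It was exceeded in 12 of 20 sets, by knockout 2 or wild-type 2. Chance gives about 1 in 20 only for sets not chosen by their values; the 10 genes were selected on these levels, so the count is a description and no test. Over all tested genes, knockout 2 stood that far above in 5.8% and wild-type 2 in 1.89%. Knockout 2 exceeded it for Postn at 0.966, Ccn2 at 0.948, Timp1 at 0.943, Lox at 0.941 and Tnc at 0.927. It also did so for Thbs1 at 0.918, Cthrc1 at 0.903, Spp1 at 0.888 and Ltbp2 at 0.856. Wild-type 2 exceeded it for Tnc at 0.876, Cthrc1 at 0.843 and Lox at 0.842.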

How the results depend on the processing

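The count of members past the threshold was 0 under every alternative run that gave them a p-value, which DESeq2 did not; that of related genes was 0 except under the replicate block, where it was 1. Over all genes, 4 passed; the count was 1 with the strict filter, 8 with DESeq2, 168 with the replicate block and between 2 and 3 when 1 heart was left out (2 without wild-type 4 or wild-type 5). The median log2 fold change of members ran from -3.43 (without knockout 2) to 2.58 (without wild-type 2) when 1 heart was left out. Of 64 member values with 1 heart left out, 25 changed sign and 11 moved by more than 1 SD between hearts of a genotype. Of 64 under other alternatives, 15 changed sign and 0 moved that far. That SD takes in knockout 2 and wild-type 2, so it is wide and the count of 0 shows little. Timp1, at 0.36 with all hearts and -1.01 without knockout 2 and wild-type 2, was not counted as moved. Numbers 2 and 4 occur in both genotypes, but the labels give them no meaning; deviations of knockout 2 and wild-type 2 correlated across genes at 0.908 and those of knockout 4 and wild-type 4 at 0.110, so the block, which rests on 2 pairs, pairs hearts by a number only. Added after seeing the data, leaving Gsn out of the fibroblast sum turned the log2 ratio of knockout 2 and wild-type 2 to the other hearts to 0.51, against -0.65 with it. The spread among 4 hearts sets the limits of Spp1, Tnc and Cthrc1 together with 0 to 19 reads in most hearts.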
